A study of Arabidopsis thaliana with 24 samples.

Results

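GH9B13 (locus AT4G02290) and GH9C2 (AT1G64390) encode family 9 glycosyl hydrolases, enzymes of the cellulase type, of Arabidopsis thaliana. They are 2 of the 13356 genes that have a probe set of their own in the annotation used here, and each is measured by 1 probe set. They were chosen by a rise of these signals after the auxin indole-3-acetic acid (IAA). Their IAA responses are therefore given as a description, with no test.

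Family 9 glycosyl hydrolases of plants are endoglucanases that cut glucan chains of the cell wall. Class A members sit in a membrane and take part in cellulose synthesis, class B members are secreted, and class C members are secreted and carry an additional carbohydrate-binding module. GH9B13 belongs to class B and GH9C2 to class C. Auxin promotes cell expansion and the loosening of the wall. It acts by removing Aux/IAA proteins, which repress auxin-response genes, and wall-modifying enzymes are among the known products of auxin-regulated genes.

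Affymetrix ATH1 arrays measured total RNA of whole seedlings that had grown in the light for 7 days in shaken liquid Murashige and Skoog medium with 1.5% sucrose, under 16 h of light and 8 h of dark. The seedlings then received 5 µM IAA or, as the control, ethanol for 2 h at 24 °C. The 4 genotypes were the Columbia wild type, called Col, the IAA17 alleles iaa17-6 and axr3-1, and iaa5-1 iaa6-1 iaa19-1, called the triple mutant below, with all mutant lines labelled as ecotype Columbia. As background, axr3-1 is a dominant allele that makes the IAA17 repressor more stable, and its seedlings are known to form few root hairs. Each of the 8 groups had 3 arrays, whose labels do not say whether they came from separate cultures, so the spread behind each p-value is that between these arrays and may be technical. Each array is a whole-seedling extract, in which fewer cells of a type and less RNA per cell cannot be told apart.

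The values are log2 signals with a floor of 5.64, the log2 of 50, at which 44.4% to 46.0% of the probe sets of each array lie. Array medians lay between 5.94 and 6.06. Both genes were above the floor on all 24 arrays. Of the within-group variance over all probe sets, 47.1% lay on 1 component, along which 6 arrays stood apart from the others of their groups: replicate 3 of the Col control, the iaa17-6 control, the iaa17-6 IAA group and the axr3-1 IAA group, and replicate 1 of both triple mutant groups. All 6 lay to the same side. On the other side, iaa17-6 control replicate 2 (-0.266) and axr3-1 IAA replicate 2 (-0.254) were kept. They lay about as far out as axr3-1 IAA replicate 3 (0.263). Results are also given without the 6 arrays where a call was lost or a value clearly moved. The genotypes were not checked by the transcripts of the mutated genes, since IAA5, IAA6, IAA17 and IAA19 have no probe set named here.

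GH9B13 read higher after IAA in every genotype, and the control and IAA arrays of a genotype did not overlap. Both genes were chosen by such a rise, and the share of all probe sets without overlap was not counted. Nothing is therefore read from a lack of overlap between treatments, here or for GH9C2 below. In the Col control, GH9B13 read 6.90, 6.72 and 7.12 on the 3 arrays, and with IAA it read 8.08, 7.93 and 8.60. In iaa17-6 the control arrays read 6.99, 6.74 and 7.08 and the IAA arrays 7.87, 7.99 and 8.38. In these genotypes every IAA array lay above every control array, and replicate 3 was the highest of both IAA groups.

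In the triple mutant, GH9B13 read 7.06, 6.74 and 6.81 in the control and 8.51, 8.31 and 8.57 with IAA. In axr3-1 it read 6.59, 6.84 and 6.46 in the control and 7.55, 7.04 and 7.52 with IAA. The axr3-1 IAA arrays were the only IAA arrays below 7.87, the lowest value of the other 3 IAA groups.

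GH9C2, the class C enzyme, read 9.12, 9.22 and 9.42 on the Col control arrays and 9.69, 9.74 and 10.23 on the Col IAA arrays. The triple mutant read 9.15, 8.95 and 9.24 in the control and 10.32, 10.13 and 10.29 with IAA. The IAA arrays lay above the control arrays in both genotypes.

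In iaa17-6, GH9C2 read 9.32, 9.13 and 9.15 in the control and 9.24, 9.85 and 9.95 with IAA. The groups overlapped there, because replicate 1 of the IAA group lay below replicate 1 of the control. In axr3-1 it read 8.47, 8.89 and 8.28 in the control and 8.69, 8.92 and 8.97 with IAA, and these groups overlapped too. The lowest array of the other genotypes read 8.95, and the axr3-1 arrays lay below it except for IAA replicate 3.

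**Figure D1:**
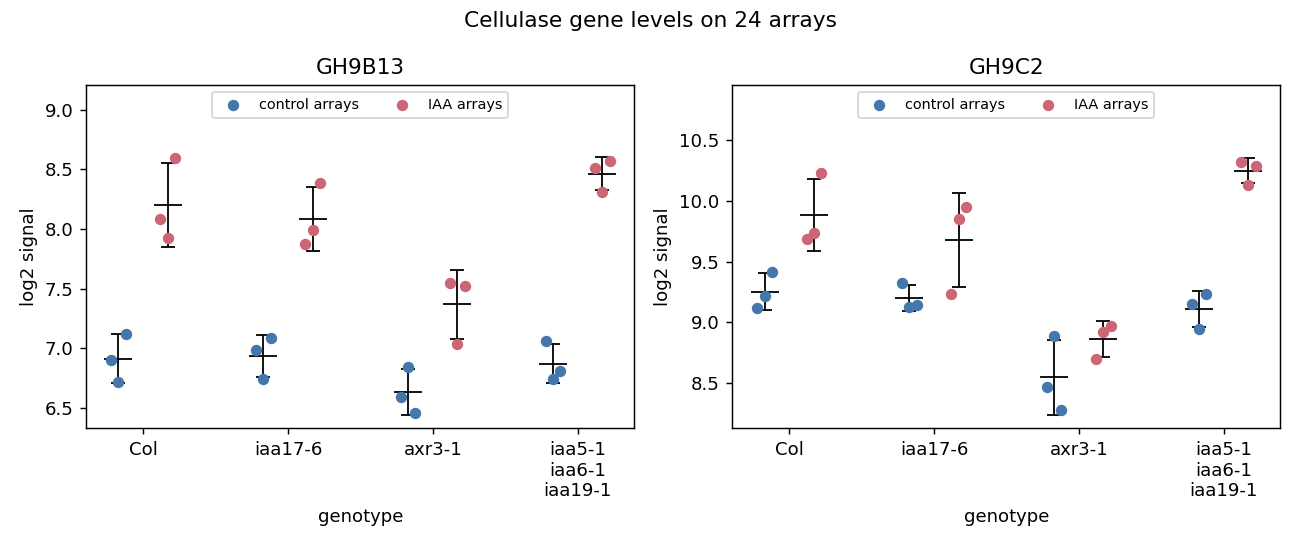
Log2 signal (vertical axis) of GH9B13 (left) and GH9C2 (right) on each array, by genotype (horizontal axis), with control arrays in blue and IAA arrays in red, and the mean and SD of each group of 3 as black bars. The control and IAA points of GH9B13, a gene chosen by its rise after IAA, do not overlap within any of the 4 genotypes. The GH9C2 points of axr3-1 lie low in both treatments.

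As group means ± SD over 3 arrays, GH9B13 was highest in the triple mutant with IAA (8.47 ± 0.13), followed by Col with IAA (8.20 ± 0.35), iaa17-6 with IAA (8.08 ± 0.27) and axr3-1 with IAA (7.37 ± 0.29). The control groups came last, with iaa17-6 at 6.94 ± 0.18, Col at 6.91 ± 0.20, the triple mutant at 6.87 ± 0.17 and axr3-1 at 6.63 ± 0.19. Neighbours in this order differed by more than the larger of their SDs at 3 steps, which lay on either side of the axr3-1 IAA group and between the triple mutant control and the axr3-1 control. That all IAA groups came before the control groups follows in part from choosing this gene by its rise. The axr3-1 group was the lowest of each treatment.

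The order for GH9C2 was the triple mutant with IAA (10.25 ± 0.10), Col with IAA (9.88 ± 0.30), iaa17-6 with IAA (9.68 ± 0.39), the Col control (9.25 ± 0.15), the iaa17-6 control (9.20 ± 0.11), the triple mutant control (9.11 ± 0.15), axr3-1 with IAA (8.86 ± 0.15) and the axr3-1 control (8.55 ± 0.31). Steps larger than the larger SD followed the triple mutant with IAA, iaa17-6 with IAA, the triple mutant control and axr3-1 with IAA. Both axr3-1 groups stood below all control groups of the other genotypes.

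As log2 differences between IAA and control, with a fitted standard error (SE) of 0.19, the GH9B13 response was 1.29 in Col (2.45-fold), 1.15 in iaa17-6 (2.21-fold), 0.74 in axr3-1 (1.67-fold) and 1.59 in the triple mutant (3.02-fold). For GH9C2, with an SE of 0.18, it was 0.63 in Col (1.55-fold), 0.48 in iaa17-6 (1.39-fold), 0.32 in axr3-1 (1.24-fold) and 1.14 in the triple mutant (2.197-fold). The 95% interval of the axr3-1 response of GH9C2 ran from -0.06 to 0.69. Relative to Col on the log2 scale, GH9B13 kept 88.8% of the response in iaa17-6, 57.2% in axr3-1 and 124% in the triple mutant, and GH9C2 kept 75.8%, 49.9% and 179% in the same order. The 4 genotypes were ordered alike for both genes, and each difference from Col shares the Col arrays.

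The GH9C2 response was less stable where it was small. It ranged from 0.18 to 0.49 in axr3-1 when single arrays were left out, with the lowest value without control replicate 3 and the highest without control replicate 2. In iaa17-6 it was 0.32 without the 6 arrays that stood apart and 0.70 without IAA replicate 1. Without Col IAA replicate 3, the Col response was 0.46 for GH9C2 and 1.09 for GH9B13. These values lie below the iaa17-6 responses of 0.48 and 1.15. The order of Col and iaa17-6 thus depended on that array. Over all probe sets tested, the share past an adjusted p of 0.05 in either direction was 7.04% for the Col response, 7.72% for iaa17-6, 2.4% for axr3-1 and 7.27% for the triple mutant, and nothing is read from these shares for genes that a rise chose.

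In iaa17-6 and in the triple mutant, control and IAA arrays of the same replicate number shared deviations across all probe sets, so differences within a number can be given. For GH9B13 these were 0.88, 1.25 and 1.299 in iaa17-6 and 1.45, 1.57 and 1.76 in the triple mutant. For GH9C2 they were -0.08, 0.72 and 0.80 in iaa17-6 and 1.17, 1.19 and 1.05 in the triple mutant. GH9C2 was not higher in the first iaa17-6 pair, and both genes were higher with IAA in the other pairs.

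The question of the series is how the mutants differ from Col, and the mutants were tested against Col in 1 limma fit across 14192 probe sets, with p-values adjusted by Benjamini-Hochberg within each comparison. Of 18 such tests of GH9B13 and GH9C2, 3 passed, all with axr3-1 lower than Col. Choosing the genes by a rise after IAA used the same arrays and favours high Col IAA values, so these tests are not independent of the choice.

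With IAA, GH9C2 was 2.03-fold lower in axr3-1 than in Col (log2 difference -1.02, SE 0.18, 95% interval -1.40 to -0.65, limma adjusted p = 0.000734), and the 3 arrays of each group did not overlap. GH9B13 was 1.78-fold lower there (log2 difference -0.83, SE 0.19, 95% interval -1.23 to -0.44, limma adjusted p = 0.00664), again without overlap. Over all probe sets, 7.72% passed in this comparison. The share of all probe sets whose groups do not overlap was not counted, here or without IAA. Nothing is therefore read from the lack of overlap. The GH9B13 call rested on Col IAA replicate 3, the highest Col array: without it the log2 difference was -0.64, with a limma adjusted p of 0.0603. It was also lost in a fit of the compared groups alone, with a limma adjusted p of 0.146. The GH9C2 call held in all 15 alternatives run, with limma adjusted p from 0.000183 to 0.0434.

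Without IAA, GH9C2 was 1.63-fold lower in axr3-1 than in Col (log2 difference -0.71, SE 0.18, 95% interval -1.08 to -0.33, limma adjusted p = 0.0149), and the groups did not overlap. GH9B13 differed by -0.28 there (SE 0.19, 95% interval -0.67 to 0.11, limma adjusted p = 0.482), and its groups overlapped (the difference was -0.18 without the 6 arrays). In this comparison 9.05% of all probe sets passed. The GH9C2 call was lost in 6 of 15 alternatives. These left out Col control replicate 3 (log2 difference -0.62, limma adjusted p = 0.0827), axr3-1 control replicate 1 (-0.67, 0.0631), axr3-1 control replicate 3 (-0.57, 0.0959) or the 6 arrays that stood apart (-0.62, 0.126), weighted the arrays (-0.63, 0.0823) or fitted the compared groups alone (-0.71, 0.128).

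**Figure D2:**
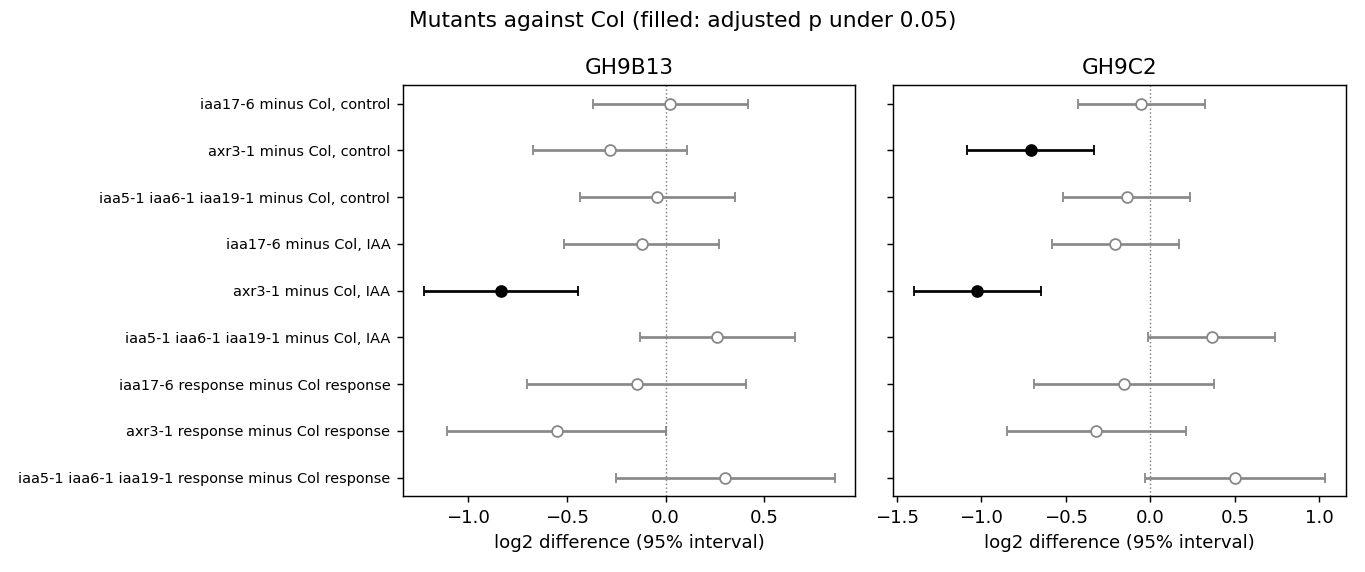
Log2 differences (horizontal axis) with 95% intervals for each mutant against Col in the control and with IAA, and for each mutant's IAA response minus that of Col, for GH9B13 (left) and GH9C2 (right). Filled points are the 3 differences with an adjusted p under 0.05, which are axr3-1 with IAA for both genes and the axr3-1 control for GH9C2.

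Whether the IAA response itself was smaller in axr3-1 is a separate test. For GH9B13 the axr3-1 response was 0.55 below that of Col on the log2 scale, written as a difference of -0.55 (SE 0.27, 95% interval -1.11 to 0.00), with an unadjusted p of 0.0509 and an adjusted p of 0.555 from limma. For GH9C2 the difference of responses was -0.32 (SE 0.25, 95% interval -0.85 to 0.21, limma adjusted p = 0.718). The share of all probe sets that passed was 1.62%. Neither gene's response was shown to differ between axr3-1 and Col, and both intervals reach well below 0. Single arrays moved these values. Without Col IAA replicate 3 they were -0.36 for GH9B13 and -0.145 for GH9C2, and without axr3-1 control replicate 2 the GH9C2 value was -0.146. Without the 6 arrays that stood apart they were -0.73 and -0.45.

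In iaa17-6, the other IAA17 allele, no test of either gene passed. The difference from Col in the control was 0.02 for GH9B13 (95% interval -0.37 to 0.42) and -0.05 for GH9C2 (-0.43 to 0.32), where 0.197% of all probe sets passed. With IAA it was -0.12 for GH9B13 (-0.51 to 0.27) and -0.21 for GH9C2 (-0.58 to 0.17), against 0.106% of all probe sets. The responses differed from those of Col by -0.15 for GH9B13 (-0.70 to 0.41) and by -0.15 for GH9C2 (-0.68 to 0.38), against 0.0282% of all probe sets. Limma adjusted p in these 6 tests ran from 0.751 to 1. The signs of these small differences depended on single arrays. Without the 6 arrays that stood apart, the differences with IAA were -0.27 for GH9B13 and -0.34 for GH9C2, and those of the responses were -0.33 and -0.40, none past the threshold.

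In the triple mutant, no test of either gene passed in the fit described, although both genes had the highest of their 8 group means there with IAA. With array weights, the GH9C2 difference from Col with IAA passed (0.376, limma adjusted p = 0.0301). In that fit 1698 of the 14192 probe sets passed in this comparison, against 21 in the fit described. In the control, GH9B13 differed from Col by -0.04 (95% interval -0.43 to 0.35) and GH9C2 by -0.14 (-0.51 to 0.24), where 0.176% of all probe sets passed. With IAA, GH9B13 differed by 0.26 (-0.13 to 0.66, limma adjusted p = 0.885) and GH9C2 by 0.36 (-0.01 to 0.74, limma adjusted p = 0.715), against 0.148% of all probe sets. The responses differed from those of Col by 0.30 for GH9B13 (-0.25 to 0.86) and by 0.50 for GH9C2 (-0.03 to 1.03), against 0.0352% of all probe sets, with limma adjusted p of 1 for both. The GH9B13 values moved with single Col arrays. Without Col IAA replicate 2 the difference with IAA was 0.126 and that of the responses 0.166, and without Col IAA replicate 3 they were 0.46 and 0.50. Without Col control replicate 3 the difference of the responses was 0.199. Over the 12 tests of iaa17-6 and the triple mutant, 0 had an unadjusted p under 0.05. Of all 14192 probe sets, 1271 did in the control, 1288 with IAA and 305 for the responses in iaa17-6. In the triple mutant 1083, 1022 and 205 did, in the same order. Nothing is read from the 0 of 12 beside these counts. The lowest unadjusted limma p were those of GH9C2 in the triple mutant, 0.0570 with IAA and 0.0626 for the responses.

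Within groups, on 19 of the 24 arrays both genes deviated from their group mean to the same side. Both genes were read on the same array each time, and the part of the array in this was not tested.

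Few other family 9 genes could be tested. Of 25 family genes listed, 15 had a probe set of their own, 9 of these lay at the floor on all arrays, and 4 besides GH9B13 and GH9C2 were tested. Over all probe sets, 7.04% passed in the Col response, 7.72% in iaa17-6, 2.4% in axr3-1 and 7.27% in the triple mutant. By limma, 0 of the 4 passed in the response of any genotype (at an unadjusted p under 0.05, GH9C1 in iaa17-6 alone). This is near these shares for so few genes. Their log2 responses lay between -0.12 and 0.15 in Col, -0.39 and 0.04 in iaa17-6, -0.08 and 0.15 in axr3-1, and -0.23 and 0.15 in the triple mutant, with the lowest values of iaa17-6 and the triple mutant from GH9C1. The highest Col response among them, 0.15 for GH9B8, was the nearest to the 0.63 of GH9C2. GH9B13 and GH9C2 were chosen for their rise, so smaller responses in the rest of the family follow in part from that choice. The median Col response was -0.04 over the 4 genes and 0.00 over all probe sets. In a fit that weighted the arrays, 1 of the 4 passed in the triple mutant response. There 2348 of all probe sets passed, against 1032 in the fit described.

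Against Col, 3 of the 4 other family genes were lower in axr3-1 in the control, where 9.05% of all probe sets passed in either direction, and 2 with IAA, where 7.72% did. GH9C1, a class C enzyme like GH9C2 and a gene of the root hair list, averaged 7.31 ± 0.29 in the Col control and lay at the floor on all axr3-1 control arrays. It was at least 3.17-fold lower there (limma adjusted p = 1.37e-06), and with IAA the log2 difference was -1.46 (SE 0.17, limma adjusted p = 5.41e-06), with 1 of 3 axr3-1 arrays above the floor.

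GH9B8, of class B, averaged 6.39 ± 0.19 in the Col control and lay at the floor on all axr3-1 control arrays, which is at least 1.68-fold lower (limma adjusted p = 0.000644). With IAA it averaged 6.54 ± 0.27 in Col, and 1 of 3 axr3-1 arrays was above the floor (log2 difference -0.86, limma adjusted p = 0.000148). With most axr3-1 values at the floor, the -1.46 of GH9C1 and this -0.86 may understate the difference. GH9B7, also of class B, averaged 9.70 ± 0.20 in the Col control and 9.09 ± 0.10 in the axr3-1 control, 1.52-fold lower (limma adjusted p = 0.00168), while with IAA it differed by -0.37 (limma adjusted p = 0.0592). GH9A3, of the membrane-bound class A, read 5.86 or less on every array, close to the floor.

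**Figure D3:**
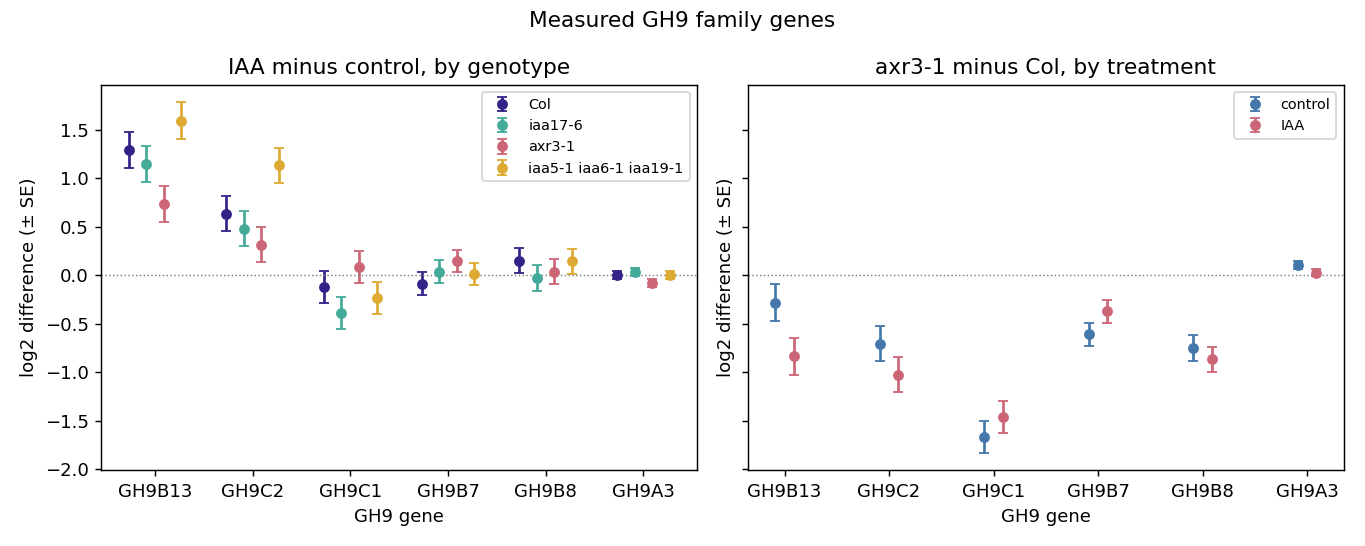
Log2 differences ± SE (vertical axis) of the 6 tested GH9 family genes (horizontal axis), as IAA minus control in each genotype (left) and as axr3-1 minus Col in each treatment (right). The IAA responses of GH9C1, GH9B7, GH9B8 and GH9A3 lie between -0.39 and 0.15. In axr3-1, GH9B13, GH9C2, GH9C1, GH9B7 and GH9B8 lie below 0 in both treatments, where values against groups at the floor are bounds. GH9B13 in the control and GH9B7 with IAA did not pass, and GH9A3, close to the floor, lies above 0.

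Root hair markers were lower in axr3-1, while the few measured markers of other tissues did not pass. Of 21 root hair markers listed, 4 had a probe set of their own: EXPA7, EXPA18, XTH26 and GH9C1. Their summed linear signal ranged from 436 to 661 in the Col control and from 460 to 689 in Col with IAA. It was 200 on each axr3-1 control array, where all 4 lay at the floor, and 200 to 210 in axr3-1 with IAA, where 3 did. All 4 were lower than Col in both treatments by the limma test. In these comparisons 9.05% (control) and 7.72% (IAA) of all probe sets passed in either direction. The marker list was chosen with earlier results of these data known, so the test may not be independent of that choice.

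Of 12 markers of other root tissues, only PYK10, a root beta-glucosidase, had a probe set of its own. It differed between axr3-1 and Col by 0.02 in the control and -0.04 with IAA on the log2 scale, and its linear signal was 4980 to 5677 in the Col control and 4721 to 5822 in the axr3-1 control. Of 22 photosynthesis markers, LHCB4.1, LHCB4.2 and RCA were measured, and by limma 0 passed in either axr3-1 comparison with Col, also at an unadjusted p under 0.05. Their summed signal ranged from 11640 to 14197 in the Col control and from 11465 to 16300 in the axr3-1 control. The part of the root hair markers' fall in the lower GH9C2 and GH9B13 levels of axr3-1 was not tested.

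Listed auxin reporter genes describe the treatment in each genotype. Of 23 such genes, 9 had a probe set of their own, and all 9 rose in Col, iaa17-6 and the triple mutant, while 5 of 9 rose in axr3-1. The share of all probe sets past the threshold was 7.04%, 7.72%, 7.27% and 2.4% in the same order of genotypes. The reporter list was chosen with earlier results of these data known, so the 9 of 9 may follow from that choice. GH3.3, which encodes an enzyme that joins auxin to amino acids, rose 58.1-fold in Col and 22.2-fold in axr3-1. Its group means with IAA were 12.62 in Col and 12.41 in axr3-1, and in the control 6.76 and 7.94. The smaller GH3.3 fold in axr3-1 thus goes with a higher control level. Of the 9 reporters, 1 was higher than Col in the axr3-1 control and 0 were lower. With IAA, 6 were lower in axr3-1 and 0 were higher. The response was smaller than that of Col for 4 and larger for 0. Over all probe sets, 9.05%, 7.72% and 1.62% passed in these comparisons. The median log2 response of the 9 was 3.00 in Col and 1.81 in axr3-1, with values at the floor kept there. The responses of both cellulase genes lay below these medians in Col and axr3-1.

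Other wall-modifying families were mixed. Of 36 expansin genes, whose proteins loosen the wall without cutting it, 12 were tested. In the Col response 2 rose and 1 fell, in iaa17-6 2 rose and 1 fell, in the triple mutant 2 rose and 1 fell, and in axr3-1 1 rose and none fell. The shares of all probe sets called in these responses were 7.04%, 7.72%, 7.27% and 2.4%. The median log2 response of the 12 was 0.18 in Col, against 0.00 over all probe sets. EXPA4 rose 2.97-fold in Col (limma adjusted p = 0.0120) and 2.68-fold in the triple mutant (limma adjusted p = 0.0235), while it gave 2.27-fold in iaa17-6 (limma adjusted p = 0.0655) and 1.39-fold in axr3-1 (limma adjusted p = 0.660).

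EXPA8 rose 2.37-fold in iaa17-6 (limma adjusted p = 0.0321) and 2.69-fold with the 3 genes mutated (limma adjusted p = 0.0134). It gave 1.87-fold in Col and 1.65-fold in axr3-1 (limma adjusted p = 0.167 and 0.466). In the axr3-1 control 1 of 3 EXPA8 arrays was above the floor, so the 1.65-fold may understate the rise. EXPA20 rose 1.91-fold in Col and 1.54-fold in iaa17-6 (limma adjusted p = 0.00260 and 0.0485), with 1 of 3 Col control arrays above the floor. Its log2 response was 0.52 in the triple mutant and -0.15 in axr3-1 (limma adjusted p = 0.123 and 0.803).

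EXPB1 was at the floor on all IAA arrays, at least 1.48-fold below the Col control, 1.43-fold below that of iaa17-6, and 1.82-fold below that of the triple mutant (limma adjusted p from 2.09e-07 to 0.000143), and at the floor in both axr3-1 groups. In the control, axr3-1 had 2 expansins higher and 7 lower than Col, with a median of -0.61, and with IAA 2 higher and 5 lower, against 9.05% and 7.72% of all probe sets in either direction. The iaa17-6 count of 3 became 1 without iaa17-6 control replicate 2 or IAA replicate 1 or 2. The triple mutant count of 3 became 1 without its control replicate 2, and the axr3-1 count of 1 became 0 without its control or IAA replicate 1 and 2 without the 6 arrays that stood apart.

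Of 33 xyloglucan endotransglucosylase/hydrolase (XTH) genes, whose enzymes cut and rejoin xyloglucan, 8 were tested. In Col, iaa17-6 and the triple mutant 3 rose and 2 fell after IAA, and in axr3-1 2 rose and none fell, against 7.04%, 7.72%, 7.27% and 2.4% of all probe sets in either direction. XTH18 rose in each genotype, by 2.38-fold in Col and 1.75-fold in axr3-1 (limma adjusted p = 6.34e-05 and 0.0127). XTH19 rose 2.44-fold in Col and 7.24-fold in axr3-1 (limma adjusted p = 0.00329 and 1.10e-06). Its group means were 7.75 in the Col control and 6.50 in the axr3-1 control, and 9.04 and 9.36 with IAA. The larger fold in axr3-1 thus goes with a lower control level. XTH32 fell by 0.65 on the log2 scale in Col (limma adjusted p = 0.0151).

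The median log2 response of the 8 XTH genes was 0.08 in Col and 0.20 in axr3-1. Against Col, 4 of the 8 were lower in the axr3-1 control and 3 with IAA, against 9.05% and 7.72% of all probe sets, and none was higher. The Col count of 5 became 3 without Col control replicate 3, and the triple mutant count of 5 became 3 without its control replicate 3. The Col, iaa17-6 and triple mutant counts of 5 each became 3 without the 6 arrays that stood apart. The axr3-1 count of 2 became 1 without its control replicate 2 or IAA replicate 3. Of 15 cellulose synthesis genes listed, 0 had a probe set of their own.

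Profiles were compared by the root mean square difference of the 8 group means, each profile centred on its own mean, among 7606 tested probe sets that name 1 gene. The profile most like that of GH9B13 was that of AT3G28850, at 0.0679 log2 units, followed by the expansin EXPA4 at 0.135, AT1G72230 at 0.142, AT3G10720 at 0.159 and AT1G44830 at 0.167. The IAA responses of AT3G28850 were 1.297 in Col, 1.201 in iaa17-6, 0.89 in axr3-1 and 1.57 in the triple mutant.

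Genes with the profile of GH9C2 were less close. AT1G28400 came first at 0.184, followed by AT4G13130 at 0.186, AT1G63840 at 0.190, BAT1, a brassinosteroid-related acyltransferase, at 0.194 and AT1G33260 at 0.217. The distance between GH9B13 and GH9C2 was 0.308, which made GH9C2 the 59th nearest to GH9B13 and GH9B13 the 71st nearest to GH9C2. These likenesses are over 8 group means that share their arrays.

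**Figure D4:**
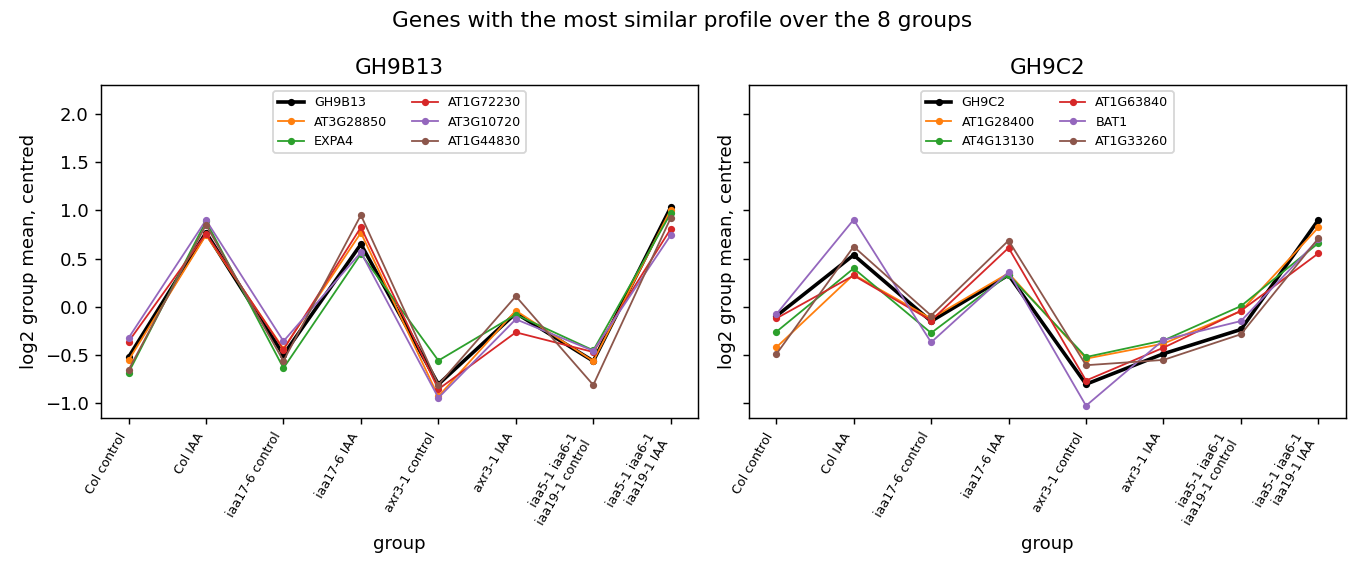
Group means of log2 signal, each centred on its own mean over the 8 groups (vertical axis), for GH9B13 (left, black) and GH9C2 (right, black) with the 5 most similar genes of each in colour, by group (horizontal axis). The lines near GH9B13 run closer to it, at 0.0679 to 0.167 log2 units, than those near GH9C2, at 0.184 to 0.217.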

How the data were processed

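Total RNA of 24 seedling samples was measured on Affymetrix ATH1 arrays. The deposited values are on a log2 scale, as judged from their range, with 1 for each probe set of an array. How the authors summarized and normalized them is not stated in the labels, and nothing was rescaled. Groups and replicate numbers follow the labels (1 title spells axr3-1 differently from its description). The members and the gene lists were chosen with earlier results of these data known.

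Controls (64 probe sets) were dropped. The lowest 30% by mean all lay at the floor, so this filter removed the 8554 probe sets never above it. Of the 22746 others, 13513 name 1 gene, 503 several, and 8730 are unnamed here. A listed gene was represented by its brightest probe set naming that gene alone.

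The 8 group means were fitted with limma 3.58.1 in R 4.3.3 (eBayes with trend, 13 contrasts, 16 residual degrees of freedom, two-sided, Benjamini-Hochberg within a contrast, threshold 0.05). The fit was tested on simulated data. The number of arrays limits the precision. Besides both cellulase genes, named genes are the 5 nearest profiles for each, all measured GH9 genes and up to 4 per list with the largest mean response. The lists were GH9 family, expansins, XTH family, cellulose synthesis, auxin reporters, and markers of root hairs, root and photosynthesis.

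Same-numbered arrays shared deviations (every r over 0.1) for the responses of iaa17-6 (r from 0.162 to 0.698) and of the triple mutant (0.582 to 0.836), and between the iaa17-6 and Col controls (0.325 to 0.724), but not in the other comparisons. This pairing comes from the data, not from the labels. Alternatives were no filter and a stricter one, other scalings, array weights, no mean trend, the replicate block, separate fits and leaving out single arrays. Leaving out the 6 arrays that stood apart and the block within paired groups were chosen after seeing the data.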

Additional observations from a re-analysis of the deposited data

How the results depend on the processing

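Of 432 alternative values for 26 results of GH9B13 and GH9C2, 411 kept the direction and the side of the threshold, or moved by under 1 SD where no test was made. With array weights, whose iteration stopped before its tolerance, the GH9C2 difference of axr3-1 from Col in the control was -0.627 (limma adjusted p = 0.0823), that of the triple mutant with IAA was 0.376 (limma adjusted p = 0.0301, past the threshold) and that of iaa17-6 in the control was 0.0632. In fits of the compared groups alone, with fewer samples for the spread, the GH9C2 difference of axr3-1 in the control was -0.706 (limma adjusted p = 0.128) and the GH9B13 difference with IAA -0.835 (limma adjusted p = 0.146). Leaving out the 6 arrays named as standing apart, GH9C2 gave -0.623 for axr3-1 and 0.0551 for iaa17-6 in the control. With single arrays left out, the axr3-1 differences ran from -0.877 to -0.574 (GH9C2, control) and from -0.972 to -0.638 (GH9B13, IAA). Uncalled differences changed sign: iaa17-6 in the control from -0.0734 to 0.130 (GH9B13) and from -0.121 to 0.0290 (GH9C2), iaa17-6 with IAA from -0.271 to 0.0767 (GH9B13) and from -0.341 to 0.0146 (GH9C2), the iaa17-6 response against Col from -0.296 to 0.0518 (GH9B13) and from -0.288 to 0.0680 (GH9C2), and the triple mutant control from -0.139 to 0.0642 (GH9B13). Apart from the separate fits, the causes were not tested. The replicate block changed no call of either gene: the GH9C2 difference of axr3-1 in the control stayed at -0.706 (limma adjusted p = 0.0124). In the paired iaa17-6 and Col controls, the block raised the count of probe sets past the threshold from 28 to 43. Over all alternatives the counts past the threshold ranged from 595 to 1753 around 999 for the Col response, 363 to 1248 around 1096 for iaa17-6, 84 to 404 around 341 for axr3-1 and 706 to 2348 around 1032 for the triple mutant. Against Col in the control they ranged from 2 to 141 around 28, 482 to 1472 around 1285 and 0 to 221 around 25 in the same order, and with IAA from 2 to 85 around 15, 656 to 1629 around 1095 and 6 to 1698 around 21. For the differences of responses they ranged from 1 to 9 around 4, 161 to 244 around 230 and 4 to 20 around 5. Among the listed families, array weights moved the XTH count of axr3-1 against Col with IAA from 3 to 6 and the expansin count of the triple mutant response from 3 to 7, and separate fits moved the XTH count of the iaa17-6 response from 5 to 0. The low ends came mostly from the separate fits and the high ends often from array weights, among them the 1698 of the triple mutant with IAA.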
